A study of Rattus norvegicus with 9 samples.

Results

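The G1 cyclins, cyclin-dependent kinases (CDKs) and CDK inhibitors described here are 10 genes: the D cyclins Ccnd1, Ccnd2 and Ccnd3, the kinases Cdk4, Cdk6 and Cdk2, the inhibitors Cdkn1b (p27), Cdkn2b (p15) and Cdkn2c (p18), and the retinoblastoma gene Rb1. They were chosen by gene symbol, and all 10 were found among the 19608 genes of the expression table. The values come from RNA sequencing of HEI-OC1, an immortalized line from the organ of Corti of the cochlea that serves as a hair cell-like model of drug damage to the ear. Cells were kept for 24 h with phosphate-buffered saline (PBS, the control), with neomycin, an aminoglycoside antibiotic, or with cisplatin, a platinum drug that crosslinks DNA. Each group has 3 libraries, 9 in all, and none of the sources used here gives a drug dose. The line was made from a mouse that carries a temperature-sensitive large T antigen of SV40, a viral protein that binds RB family proteins, and this is shared by all 3 groups. The labels name rat as the organism and carry a different final number of the cell line in every sample, while the study design names HEI-OC1 alone, so the libraries were treated as 1 line. Whether the 3 libraries of a treatment are separate cultures is not stated, so each p-value measures no more than the spread between libraries, and that spread may be technical.

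D cyclins bind CDK4 or CDK6 when growth signals reach a cell in G1, and the active kinases phosphorylate RB. RB that carries phosphate releases E2F transcription factors, which turn on cyclin E and the genes of DNA replication, and cyclin E with CDK2 completes the step. Proteins of the INK4 family (p15, p18) hold CDK4 and CDK6 inactive, and p27 binds cyclin-CDK complexes, with CDK2 as its main target. RNA levels, the only measurement here, do not show kinase activity or protein amounts, which for these proteins are also set by degradation.

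The values are FPKM, that is, fragment numbers divided by gene length and by the size of the library. The library sizes used for this scaling, inferred from the values, were 27516629 to 40221089 reads. Reads of the listed genes make up nearly all of these totals. The totals are thus close to the number of reads assigned to genes, and the share of all sequenced reads that was assigned is not known. Of the hair cell markers, 8 of 10 averaged under 1 FPKM over the 9 libraries, and Myo7a also did so within PBS (0.883). The summed level of all 10 was 14.99 to 16.5 FPKM with PBS, 17.1 to 19.1 with neomycin and 8.53 to 9.69 with cisplatin, nearly all of it from Myo6 and Myo7a, while the hair cell factor Pou4f3 was at 0 in all PBS and neomycin libraries. Fibroblast markers summed to 4780 to 5171 FPKM with PBS, 4077 to 4128 with neomycin and 1332 to 1482 with cisplatin, mostly from collagen genes. By the limma test described below, 4 of the 7 tested were higher and 2 lower with neomycin (all tested genes 37.5% and 28.7%). With cisplatin 1 was higher and 6 were lower (all tested genes 47.5% and 30.5%). Proliferation markers summed to 660.1 to 692.8, 805.4 to 827.4 and 1084 to 1108 FPKM with PBS, neomycin and cisplatin. Supporting cell markers summed to 41.0 to 43.8, 47.3 to 49.7 and 37.4 to 39.7 FPKM. S100a1 of that list averaged 10.5, 31.0 and 14.1, whereas Jag1 averaged 15.2, 6.61 and 9.89 and Slc1a3 15.7, 9.09 and 12.5. Of the 4 supporting cell markers tested, limma called 2 higher (S100a1 and Fgfr3) and 2 lower (Jag1 and Slc1a3) with either drug. Immune markers summed to 0.152 to 0.287, 0.213 to 0.276 and 1.61 to 1.94 FPKM, the last mostly from Cd68, and endothelial markers to 1.90 to 2.37, 2.21 to 2.44 and 0.358 to 0.628, mostly from Tek. What part these shifts had in the differences described here was not tested, and in such bulk RNA fewer cells of a type and less RNA per cell cannot be told apart.

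Both drugs moved nearly all of the 9 genes with enough reads to test, but not in 1 direction. Ccnd1 RNA was 2.15-fold the PBS mean with cisplatin and 2.22-fold with neomycin, and Cdkn2b RNA fell with both, to 0.537 and 0.734 of the PBS mean. Cisplatin also raised Cdk2 1.85-fold and lowered Rb1 to 0.455 of the PBS mean. Neomycin raised Ccnd3 and Cdk6, both of which were lower with cisplatin than with neomycin. The inhibitor Cdkn1b fell with neomycin and was higher with cisplatin, a rise that was not called under trimmed mean or quantile scaling. In limma's test on log2(FPKM + 1), with Benjamini-Hochberg adjustment over all 10532 tested genes and a threshold of 0.05, 5 genes of the set were higher, 3 were lower and 1 was not called with cisplatin against PBS. Over all tested genes 47.5% were called higher and 30.5% lower in that comparison. Against PBS neomycin gave 6 higher and 3 lower genes of the set, where 37.5% of all tested genes were higher and 28.7% lower. Cisplatin set directly against neomycin gave 3 higher, 5 lower and 1 not called, beside backgrounds of 45% higher and 36.6% lower. Many genes moved with either drug, so the counts are to be read beside these shares, and no test compared the set with other genes. The median absolute log2 difference of the 9 genes was 0.345 with cisplatin, 0.434 with neomycin and 0.440 between the drugs. Over all tested genes it was 0.362, 0.233 and 0.437. The median log2 difference over the 9 genes was 0.21, 0.32 and -0.20 in the 3 comparisons, and over all tested genes it was 0.12, 0.04 and 0.07. Both drug comparisons use the same 3 PBS libraries, so a PBS library that reads low or high moves both.

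**Figure D1:**
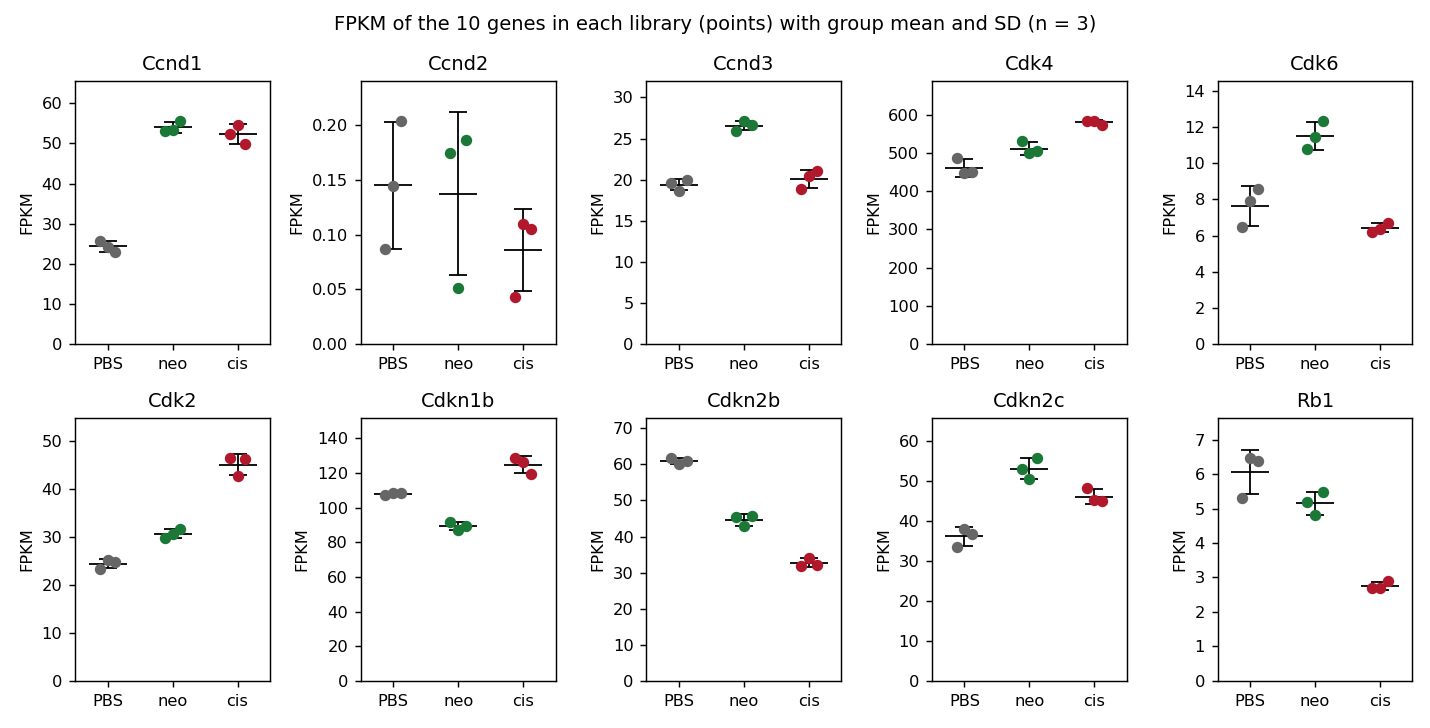
FPKM of each of the 10 genes in every library (points) by group, PBS, neomycin (neo) and cisplatin (cis), with the group mean and SD (n = 3); every axis starts at 0 and has its own scale. Ccnd1 is at 49.9 FPKM or more in all 6 drug libraries and at 25.8 or less with PBS, and Cdkn2b steps down from PBS to neomycin to cisplatin.

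Cyclin D1, the product of Ccnd1 (Entrez gene 58919), is the D cyclin that growth factor signalling most directly controls. Its RNA was at 25.8, 24.3 and 23.0 FPKM in PBS replicates 1 to 3, at 53.1, 53.4 and 55.5 with neomycin and at 52.4, 54.7 and 49.9 with cisplatin. All 6 drug libraries lay above all PBS libraries, and the drug groups overlapped each other. The means were 24.4 ± 1.40 with PBS, 54.0 ± 1.34 with neomycin and 52.3 ± 2.40 with cisplatin (SD, n = 3). By limma's test Ccnd1 rose by 1.07 ± 0.05 (SE) on the log2(FPKM + 1) scale with cisplatin (adjusted p = 2.1e-10) and by 1.12 ± 0.05 with neomycin (adjusted p = 1.3e-09). Only 0.655% of all tested genes had a larger rise with neomycin, against 4.81% with cisplatin. Between the drugs the difference was -0.05 ± 0.05 (95% interval -0.15 to 0.06, limma adjusted p = 0.416), and it became a call, at -0.23 (adjusted p = 0.000933), once the libraries were quantile normalized.

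Cyclin D3, from Ccnd3 (25193), is a widely expressed D cyclin. Library values were 19.6, 18.7 and 20.02 FPKM with PBS, 26.0, 27.1 and 26.6 with neomycin and 18.9, 20.4 and 21.03 with cisplatin. The neomycin libraries stood above all others, and the PBS and cisplatin libraries overlapped. The rise with neomycin was 0.43 ± 0.05 on the log2 scale (limma adjusted p = 5.5e-06), and cisplatin lay -0.39 ± 0.05 below neomycin (adjusted p = 6.5e-06). With cisplatin against PBS the difference of 0.05 ± 0.05 was not called (95% interval -0.06 to 0.16, limma adjusted p = 0.416), and its sign depended on scaling. It was -0.10 with trimmed mean (TMM) factors (adjusted p = 0.0986) and -0.12 with quantile normalization, where limma called it lower (adjusted p = 0.0443).

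Cyclin D2, from Ccnd2 (64033), was nearly absent. The libraries held 4, 7 and 11 reads of it with PBS, 7, 2 and 9 with neomycin and 2, 6 and 6 with cisplatin, which is at most 0.203 FPKM. The groups overlapped throughout, and the gene was below the filter of 1 FPKM, so it was not tested. A small change of Ccnd2 was not detectable at this depth, and no drug library held more than 9 reads of it. Without the filter its log2 differences were -0.06 between the drugs, -0.08 for cisplatin and -0.01 for neomycin, none of them called by limma (adjusted p of 0.371, 0.319 and 0.971).

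Summed over the 3 D cyclins, the level was 43.9 ± 1.30 FPKM with PBS, 80.7 ± 1.58 with neomycin and 72.5 ± 2.34 with cisplatin (SD, n = 3). Ccnd1 supplied 55.4% ± 1.96 of this sum with PBS, 66.9% ± 0.582 with neomycin and 72.2% ± 1.70 with cisplatin, without overlap between groups. The cyclin D pool at the RNA level was thus larger with both drugs and held a larger share of Ccnd1, most of all with cisplatin. With 3 against 3 libraries an exact two-sided permutation test cannot go below p = 0.1, and each of these comparisons of sum and share reached that value (0.12 after Benjamini-Hochberg adjustment over the 18 such tests made for sums, shares and ratios).

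**Figure D2:**
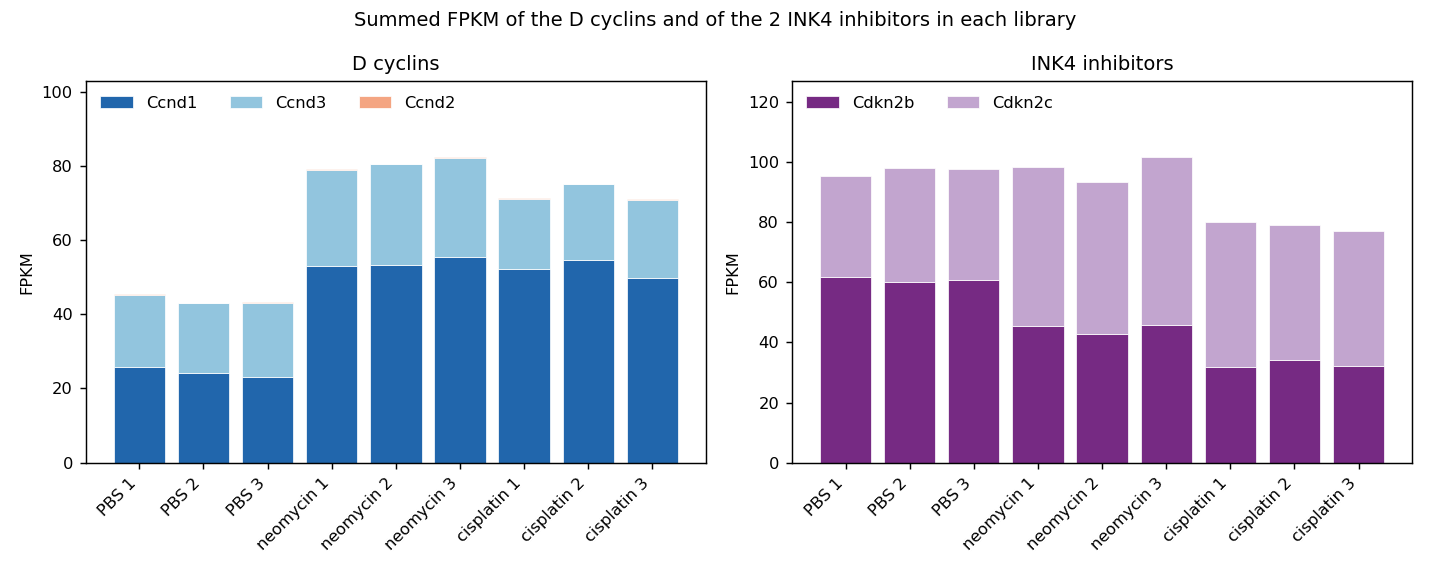
Summed FPKM in each library of the D cyclins (left, Ccnd1, Ccnd3 and Ccnd2 stacked; Ccnd2 is too low to be seen) and of the INK4 inhibitors Cdkn2b and Cdkn2c (right). The D cyclin sum is 71.0 or more in every drug library and 45.4 or less with PBS. In FPKM without further scaling, the sum of Cdkn2b and Cdkn2c in the neomycin libraries (93.3 to 101.5) overlaps that of PBS (95.3 to 98.1). Its Cdkn2b part is smaller.

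Of the kinases, Cdk4 (94201) was the most abundant gene of the set per unit of length. The libraries read 487.5, 445.9 and 448.9 FPKM with PBS, 530.3, 499.4 and 503.8 with neomycin and 582.2, 582.6 and 573.6 with cisplatin. The order of the groups was PBS, neomycin, cisplatin, with no overlap. The rise was 0.33 ± 0.04 on the log2 scale with cisplatin (limma adjusted p = 7.9e-06) and 0.15 ± 0.04 with neomycin (adjusted p = 0.00785), and the neomycin call was lost with TMM factors (0.06, adjusted p = 0.293). Tspan31, which overlaps Cdk4 in the rat annotation, averaged 76.2, 75.9 and 99.9 FPKM with PBS, neomycin and cisplatin. Since the sources used here do not give the strand setting of the counting, reads of the overlap could have gone to either gene.

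The Cdk4 promoter is shown because it alone of the 7 windows found for genes of the set held the E-box CACGTG, a motif bound by MYC and related proteins. The window is the RefSeq rat sequence (assembly GRCr8, chr7:64771203-64771502, plus strand), from 250 bases before the annotated start to 50 after it, and capitals mark E-boxes and a GC box (GGGCGG or its complement).
Cdk4: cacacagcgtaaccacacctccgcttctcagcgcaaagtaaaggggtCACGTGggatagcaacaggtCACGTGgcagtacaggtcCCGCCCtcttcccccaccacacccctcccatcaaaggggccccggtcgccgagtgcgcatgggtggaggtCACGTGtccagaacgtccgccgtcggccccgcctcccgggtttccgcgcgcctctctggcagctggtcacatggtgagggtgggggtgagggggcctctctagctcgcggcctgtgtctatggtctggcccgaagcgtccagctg
It held 3 E-boxes, starting 203, 183 and 95 bases before the start, whereas 6.65% of the 27457 rat promoter windows of the same length held at least 1 on either strand. The other 6 windows (those of Ccnd3, Cdk2, Cdkn1b, Cdkn2b, Cdkn2c and Rb1) held none. A motif match describes the letters of this rat window and is neither a binding site nor a cause. Myc itself averaged 41.8 ± 3.02 FPKM with PBS, 9.55 ± 1.47 with neomycin and 79.7 ± 4.48 with cisplatin (SD, n = 3), and its part in the level of Cdk4 was not tested.

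Cdk6 (114483), the other partner of the D cyclins, was low. Its RNA was at 6.45, 7.89 and 8.58 FPKM with PBS, 10.8, 11.4 and 12.3 with neomycin and 6.23, 6.38 and 6.72 with cisplatin. Neomycin libraries lay above all others, while the highest cisplatin library exceeded the lowest PBS library. Cdk6 rose by 0.54 ± 0.08 with neomycin (limma adjusted p = 6.0e-05) and was lower with cisplatin than with neomycin, by -0.75 ± 0.08 (adjusted p = 1.0e-06). The smaller difference of cisplatin from PBS, -0.21 ± 0.08 (limma adjusted p = 0.0316), was no longer called when PBS replicate 2 or 3 or cisplatin replicate 1 or 2 was left out (adjusted p of 0.0929, 0.164, 0.089 and 0.0719) or when no filter was used (0.1). Cdk4 made up 98.4% ± 0.297 of the summed Cdk4 and Cdk6 level with PBS, 97.8% ± 0.201 with neomycin and 98.9% ± 0.052 with cisplatin. Per unit of gene length the RNA of this pair was therefore almost wholly Cdk4 in every group. That share depends on the inferred lengths, 1340 bases for Cdk4 and 12010 for Cdk6. In reads summed over the libraries of a group, Cdk6 had 9723 beside 64797 of Cdk4 with PBS. The sums were 12520 beside 61712 with neomycin and 8684 beside 86966 with cisplatin.

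Cdk2 (362817), the kinase of cyclins E and A, was raised by both drugs. Levels were 23.4, 25.2 and 24.8 FPKM with PBS, 29.9, 30.6 and 31.7 with neomycin and 46.6, 42.7 and 46.2 with cisplatin. The 3 groups did not overlap. With cisplatin the rise was 0.86 ± 0.05 (limma adjusted p = 1.4e-09) and 0.32 ± 0.05 with neomycin (adjusted p = 6.6e-05), and the drugs differed by 0.54 ± 0.05 (adjusted p = 1.4e-07). Of all tested genes, 8.64% rose more than Cdk2 with cisplatin. Pmel, which overlaps Cdk2 in the rat annotation, was far lower, at 1.54, 2.22 and 2.66 FPKM on average in PBS, neomycin and cisplatin.

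Cdkn1b (83571) encodes p27, the inhibitor that accumulates in resting cells. The RNA level was 107.2, 108.7 and 108.3 FPKM with PBS, 91.7, 87.1 and 89.6 with neomycin and 128.7, 126.4 and 119.4 with cisplatin. The groups did not overlap, with neomycin lowest and cisplatin highest. Cdkn1b fell by 0.27 ± 0.04 on the log2 scale with neomycin (limma adjusted p = 5.5e-05), and cisplatin exceeded neomycin by 0.48 ± 0.04 (adjusted p = 7.1e-08). The value above PBS with cisplatin, 0.21 ± 0.04 (limma adjusted p = 0.000367), depended on scaling, at 0.06 with TMM factors (adjusted p = 0.241) and 0.00 with quantile normalization (adjusted p = 0.944). As a ratio within each library, which a scale factor per library does not alter, Ccnd1 to Cdkn1b was 0.225 ± 0.014 with PBS, 0.604 ± 0.022 with neomycin and 0.419 ± 0.013 with cisplatin (SD, n = 3). The ratio was higher with either drug than with PBS and higher with neomycin than with cisplatin, without overlap, at the smallest p the exact two-sided permutation test allows (0.1, adjusted 0.12).

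Cdkn2b (25164) encodes p15, an INK4 inhibitor known as a target of TGF-beta signalling, and its gene is known to be repressed by MYC acting through the factor encoded by Zbtb17. Its RNA was at 61.8, 60.0 and 60.9 FPKM with PBS, 45.4, 42.8 and 45.8 with neomycin and 31.7, 34.1 and 32.2 with cisplatin. All 3 groups stood apart, PBS highest and cisplatin lowest. In limma's test it fell by 0.88 ± 0.04 on the log2 scale with cisplatin (adjusted p = 4.0e-10) and by 0.44 ± 0.04 with neomycin (adjusted p = 1.4e-06), and the drugs differed by -0.44 ± 0.04 (adjusted p = 4.1e-07). Lower values than that of Cdkn2b were found for 4.69% of all tested genes with cisplatin and for 8.67% with neomycin.

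The Cdkn2b promoter is shown because it was the only window of the 7 with a full cAMP response element (CRE, TGACGTCA). It lies at chr5:109134806-109135105 of GRCr8, minus strand, and capitals mark the CRE and 3 GC boxes.
Cdkn2b: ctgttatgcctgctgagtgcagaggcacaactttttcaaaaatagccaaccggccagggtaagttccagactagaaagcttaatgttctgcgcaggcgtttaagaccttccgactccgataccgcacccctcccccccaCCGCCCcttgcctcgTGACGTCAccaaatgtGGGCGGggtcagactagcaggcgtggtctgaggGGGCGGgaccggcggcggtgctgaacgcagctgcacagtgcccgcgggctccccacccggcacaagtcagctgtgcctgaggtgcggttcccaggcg
The CRE starts 96 bases before the annotated start, and 1.91% of all rat windows hold 1. The AP-1 motif TGANTCA was in none of the 7 windows on either strand, compared with 7.33% of all windows. That says only that these letters are not in these 300 bases.

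Cdkn2c (54238) encodes p18, another INK4 inhibitor and a known E2F target. Libraries held it at 33.5, 38.1 and 36.8 FPKM with PBS, 53.0, 50.5 and 55.7 with neomycin and 48.3, 45.1 and 44.9 with cisplatin. Both drug groups lay above PBS, and neomycin above cisplatin, without overlap. In limma's test the rise was 0.54 ± 0.06 with neomycin (adjusted p = 1.4e-06) and 0.34 ± 0.06 with cisplatin (adjusted p = 5.4e-05). The INK4 genes of the set thus moved in opposite directions with each drug. Their sum was 97.0 ± 1.52 FPKM with PBS and 97.8 ± 4.17 with neomycin (exact two-sided permutation p = 0.8), and 78.8 ± 1.51 with cisplatin (SD, n = 3; p = 0.1 against either of the others). Composition of this pair changed with neomycin while its sum, in FPKM without further scaling, overlapped that of PBS. The TMM factors were 0.9335 to 0.955 in the PBS libraries and 1.001 to 1.017 in the neomycin libraries. Dividing by them lowers the neomycin sum relative to PBS, and the overlap was not examined under TMM or quantile scaling. The sum leaves out the INK4 genes Cdkn2a and Cdkn2d. Cdkn2a averaged 312.8 FPKM with PBS, 430.1 with neomycin and 263.6 with cisplatin, and Cdkn2d 15.1, 31.9 and 22.0.

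Rb1 (24708) encodes the retinoblastoma protein, the substrate of the CDK4 and CDK6 kinases. Its RNA was at 5.31, 6.47 and 6.39 FPKM with PBS, 5.20, 4.80 and 5.47 with neomycin and 2.69, 2.70 and 2.89 with cisplatin. The cisplatin libraries lay below all others, and the PBS and neomycin libraries overlapped. In limma's test it fell by 0.91 ± 0.07 on the log2 scale with cisplatin (adjusted p = 5.6e-08), a fall that 4.23% of all tested genes exceeded. Against neomycin the difference was -0.71 ± 0.07 (limma adjusted p = 5.8e-07). The smaller value for neomycin against PBS, -0.19 ± 0.07 (limma adjusted p = 0.0325), was no longer called without PBS replicate 2 or 3 or neomycin replicate 1 or 2 (adjusted p of 0.129, 0.116, 0.0559 and 0.126), with no filter (0.0855) or with only these groups in the fit (0.0508). Lpar6, which lies within the Rb1 locus of the rat annotation, moved the other way, from 5.52 FPKM on average with PBS to 8.88 with neomycin and 10.5 with cisplatin.

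The Rb1 promoter is shown because it alone of the 7 windows held an E2F motif, searched as TTTGGCGC, TTTCCCGC, TTTGCCGC or TTTCGCGC on both strands. The window is chr15:54911808-54912107 of GRCr8, minus strand, and capitals mark the E2F motif, 6 GC boxes and 3 copies of TGACG, the 5-base core of the CRE.
Rb1: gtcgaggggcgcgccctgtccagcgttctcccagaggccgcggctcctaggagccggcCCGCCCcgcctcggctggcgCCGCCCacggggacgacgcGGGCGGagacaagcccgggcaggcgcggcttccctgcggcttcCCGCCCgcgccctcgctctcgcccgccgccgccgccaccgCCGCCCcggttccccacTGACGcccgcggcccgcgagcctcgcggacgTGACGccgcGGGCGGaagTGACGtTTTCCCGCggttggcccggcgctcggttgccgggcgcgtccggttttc
The E2F motif TTTCCCGC begins at position 3 when the annotated start is counted as position 1, and 2.25% of all windows hold 1 of the 4 forms. With 79.7% G and C the Rb1 window was also the richest of the 7, which ranged from 62.3%, against a median of 52.3% over all windows. All 7 held at least 1 GC box, as did 34.9% of all windows, and 5 of the 7 held TGACG, as did 22.0%.

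**Figure D3:**
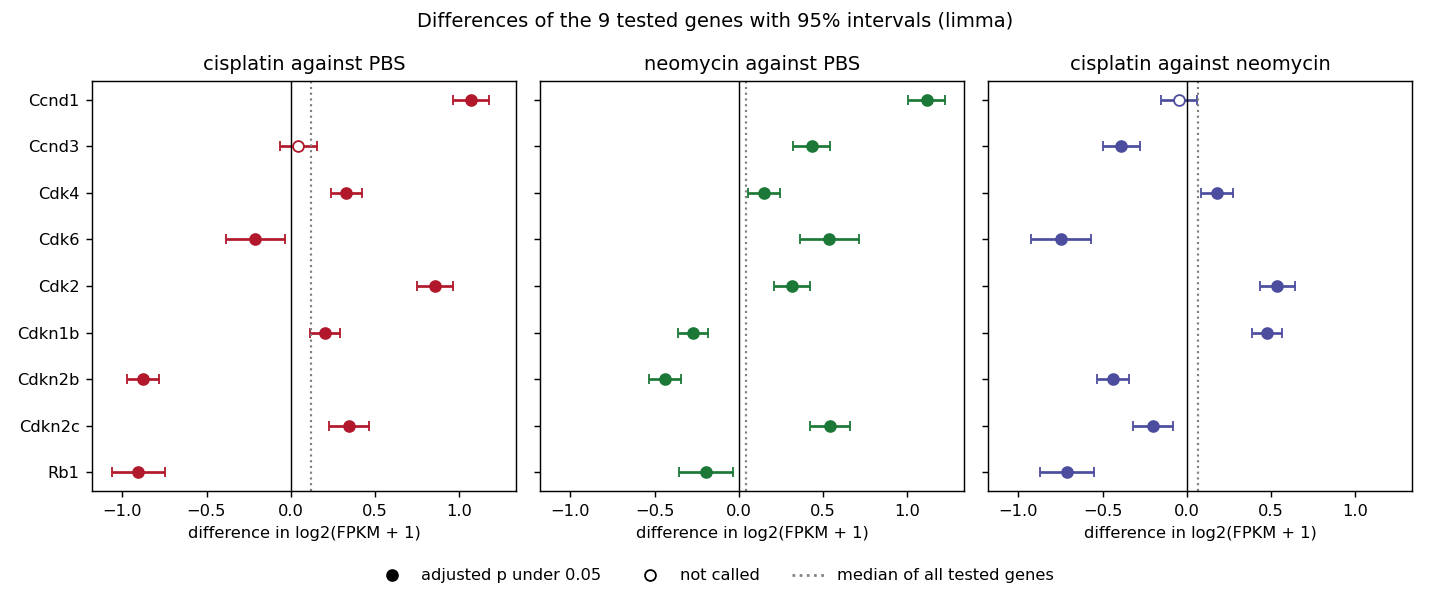
Differences in log2(FPKM + 1) of the 9 tested genes with 95% intervals, from limma, for cisplatin against PBS, neomycin against PBS and cisplatin against neomycin; filled points have an adjusted p under 0.05 and the dotted line is the median of all tested genes. Ccnd1 is at 1.07 and 1.12 in the first and second panels, Rb1 at -0.91 and -0.19, and Cdkn1b lies on opposite sides of 0. The Cdkn1b value with cisplatin was not called under TMM or quantile scaling.

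FPKM is scaled to gene length, so levels can be ranked across the genes, with the limit that the reads and the gene models may be of different species (mouse line, rat annotation). Cdk4 was highest and Cdkn1b second in all 3 groups, and Cdk4 was 4.26, 5.71 and 4.64 times Cdkn1b with PBS, neomycin and cisplatin. With PBS Cdkn2b and Cdkn2c came next, then Cdk2 and Ccnd1, whose libraries overlapped (24.5 and 24.4 FPKM on average), then Ccnd3, then Cdk6 and Rb1, which overlapped. With neomycin Ccnd1 moved up to the third place, level with Cdkn2c (54.0 and 53.1 FPKM, overlapping), and Cdkn2b, Cdk2, Ccnd3, Cdk6 and Rb1 followed without overlap. With cisplatin Ccnd1 was again the third, Cdkn2c and Cdk2 overlapped behind it (46.1 and 45.2 FPKM), and Cdkn2b, Ccnd3, Cdk6 and Rb1 followed. Ccnd2 was last in each group. The step from PBS to either drug thus carried Ccnd1 from below both INK4 genes to above Cdkn2b.

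The wider network was read from lists of genes that act beside, above and below the set. Counts of each list stand beside shares over all tested genes of 47.5% higher and 30.5% lower with cisplatin. With neomycin the shares were 37.5% and 28.7%, and between the drugs 45% and 36.6%. The medians over all tested genes were 0.12, 0.04 and 0.07 in that order. Of the 12 genes for cyclins E and A, the CDK-activating kinase and other CDK inhibitors, 10 were tested, and with cisplatin 9 rose and 1 fell (median log2 difference 0.93, against 0.12 over all tested genes). Ccne1, the cyclin E1 partner of CDK2, rose from 19.95 ± 0.435 to 56.4 ± 2.00 FPKM (SD, n = 3), Ccne2 by 1.15 ± 0.09 on the log2 scale, Ccnh by 1.23 ± 0.08 and Cdc25a, a phosphatase that activates CDK2, by 1.16 ± 0.08. With neomycin 6 rose, 3 fell and 1 was not called (median 0.28, against 0.04 over all tested genes). Cdkn2d, a further INK4 inhibitor, rose from 15.1 ± 1.32 to 31.9 ± 0.745 FPKM, Ccna2 rose by 0.61 ± 0.06 and Ccne2 by 0.48 ± 0.09. Cdkn1a, the p53 target p21, fell to 8.69 ± 0.690 FPKM with neomycin from 17.3 ± 1.30 with PBS, and was at 35.5 ± 0.448 with cisplatin. The other falls with neomycin, named after their values were seen, were those of Cdk7 and Mnat1, which with Ccnh form the CDK-activating kinase (-0.46 ± 0.05 and -0.44 ± 0.06). The 1 gene that fell with cisplatin, also named after its value was seen, was the INK4 gene Cdkn2a, whose value sums transcripts for the proteins p16 and ARF, at 312.8 ± 4.50 FPKM with PBS, 430.1 ± 20.7 with neomycin and 263.6 ± 7.15 with cisplatin. Of this list cisplatin exceeded neomycin in 8 of the 10 tested genes and was below it in 2.

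All 17 RB family partners and E2F factors were tested. With cisplatin 15 rose, 1 fell and 1 was not called (median 0.60), where 47.5% of all tested genes rose and 30.5% fell. The 1 that fell was Rbl2, which encodes the RB relative p130, from 5.41 ± 0.411 to 1.98 ± 0.174 FPKM (-1.10 ± 0.07), beside the fall of Rb1. E2f8 rose by 1.92 ± 0.08 and E2f2 by 1.56 ± 0.07 on the log2 scale, and Lin9, a subunit of the MuvB complex, by 1.12 ± 0.06. With neomycin 11 rose, 4 fell and 2 were not called (median 0.22), led by E2f8 (0.73 ± 0.08), E2f2 (0.65 ± 0.07) and E2f7 (0.59), while E2f5 fell by 0.45 ± 0.06. Rbl2 was at 5.75 ± 0.343 FPKM with neomycin and was not called against PBS (limma adjusted p = 0.36). Set directly against neomycin, cisplatin was higher in 13 and lower in 3, with E2f5 1.30 higher and Rbl2 -1.18 lower on the log2 scale.

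Among 25 genes of the G1/S transition known as E2F targets, 17 rose, 3 fell and 5 were not called with cisplatin (median 0.63). Over all tested genes 47.5% rose and 30.5% fell in that comparison. The DNA helicase factor Cdc45 rose from 15.2 ± 0.697 to 61.3 ± 1.96 FPKM, and the origin proteins Orc1 and Cdc6 by 1.90 and 1.67 on the log2 scale, and Dtl, which directs the degradation of CDT1, by 1.58. With neomycin 14 rose, 3 fell and 8 were not called (median 0.23), with Cdc45 at 0.84, the histone chaperone genes Chaf1a and Chaf1b at 0.70 and 0.67, and the uracil glycosylase gene Ung at -0.90. TMM factors turned the neomycin split to 12 higher and 7 lower. Between the drugs 13 were higher with cisplatin, 4 lower and 8 not called, and quantile normalization gave 11 higher and 13 lower. Of the proliferation markers 5 of 6 were called higher with cisplatin and 4 of 6 with neomycin, beside 47.5% and 37.5% of all tested genes. Pcna and Mcm2 are in both lists, so the counts are not independent. Mki67, a marker of cycling cells, was at 28.6 to 34.4 FPKM with PBS, 72.4 to 79.2 with neomycin and 42.1 to 47.5 with cisplatin, and Pcna at 274.5 to 293.4, 274.8 to 287.1 and 529.5 to 571.3.

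The 18 genes for the turnover of D cyclins and p27 showed no common direction. With cisplatin 8 rose, 4 fell and 6 were not called (median 0.10, against 0.12 over all tested genes). This is near the 47.5% higher and 30.5% lower over all tested genes. The split was 6 to 7 with TMM factors and 7 to 7 with quantile normalization. Cryab, a small heat shock protein known as a cofactor of FBXO4 in the degradation of cyclin D1, rose from 11.2 ± 1.36 FPKM to 43.1 ± 3.83 with cisplatin and to 35.3 ± 1.22 with neomycin. With cisplatin Fbxo4 rose by 1.09 ± 0.07 and Cks1b, a cofactor of SKP2 in the degradation of p27, by 1.02 ± 0.05, while Ddb1 fell by 0.76 ± 0.05. With neomycin 7 rose, 2 fell and 9 were not called (median 0.10, and 7 to 4 with TMM factors), among them Fbxo31 at 0.51, Usp2, which encodes a protease that stabilizes cyclin D1, at 0.39, and Skp1 at -0.45. Cisplatin against neomycin gave 8 higher and 7 lower, or 6 and 8 with quantile normalization.

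Of 20 transcription factor genes known to act on the genes for D cyclins, p27 and p15, 19 were tested. With cisplatin 12 rose, 5 fell and 2 were not called (median 0.34, and 10 to 7 with TMM factors). Over all tested genes 47.5% rose and 30.5% fell. The 4 with the largest differences all rose. Jun rose from 23.3 ± 1.48 to 105.2 ± 4.11 FPKM, Fos by 2.81 ± 0.11, Fosl1 by 2.42 ± 0.09 and Egr1 by 2.01 ± 0.16 on the log2 scale. With neomycin 3 rose, 8 fell and 8 were not called (median -0.13, and 2 to 10 with TMM factors). Over all tested genes 37.5% rose and 28.7% fell with neomycin. Myc fell by 2.03 ± 0.08 and Smad4 by 0.51, and Foxo4 and Smad3 rose by 0.65 and 0.39. Between the drugs 13 were higher with cisplatin and 4 lower, and Fos, Myc, Fosl1 and Jun were 2.95, 2.94, 2.55 and 2.37 higher.

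**Figure D4:**
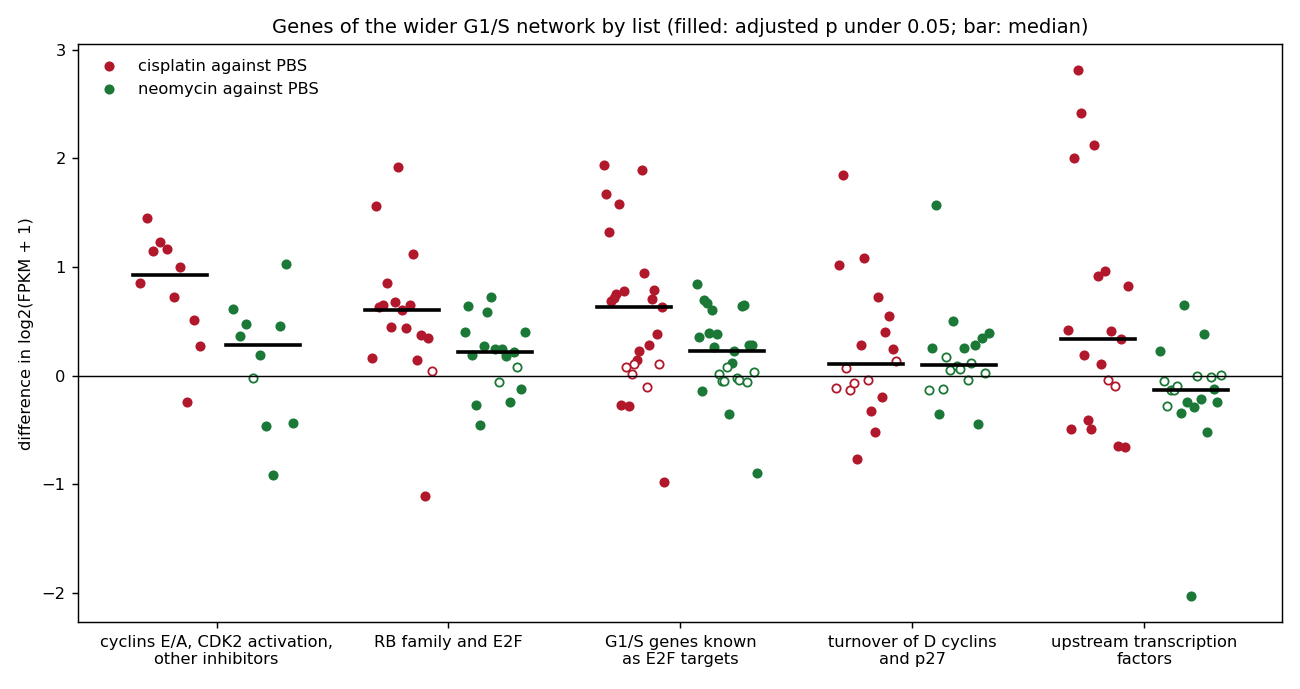
Differences in log2(FPKM + 1) against PBS for the tested genes of the 5 network lists, cisplatin in red and neomycin in green; each point is a gene, filled where the adjusted p is under 0.05, and the black bar is the median of the list. The cisplatin medians are 0.93, 0.60, 0.63, 0.10 and 0.34 from left to right, and the neomycin medians 0.28, 0.22, 0.23, 0.10 and -0.13.

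Among themselves the genes of the set followed several patterns. Over the 9 libraries the distance between centred log2(FPKM + 1) profiles (root mean square) was smallest for Cdkn2b and Rb1 (0.147), and next for Ccnd3 and Cdkn2c (0.156) and for Ccnd3 and Cdk6 (0.180). It was largest for Ccnd1 and Cdkn2b (0.844). Of 10078 candidate genes outside the set, the closest to Ccnd1 were Fancg (0.061), Zswim4 (0.099) and Etv4 (0.110). Those closest to Cdkn2b were Psat1 (0.023), Atf5 (0.031) and Cdh11 (0.033), and those closest to Rb1 were Tbx18 (0.053), Epb41 (0.063) and Fzd7 (0.063). Casp8ap2, Paf1 and Trip13 were nearest to Cdk2 (0.037 to 0.050), Polr3c, Mideas and Glrx2 to Cdkn1b (0.036 to 0.040), and Kdsr, Pla1a and Slc10a3 to Cdkn2c (0.051 to 0.056). For Cdk4 they were Gpt, Slx9 and Ehd4 (0.024 to 0.032), for Cdk6 Car5b, Pikfyve and Klhl9 (0.031 to 0.049), and for Ccnd3 Tfdp2, Hacd3 and Nkiras1 (0.048 to 0.051). These distances are descriptions of 9 libraries that share 3 treatments, and genes with small changes reach small distances more easily.

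**Figure D5:**
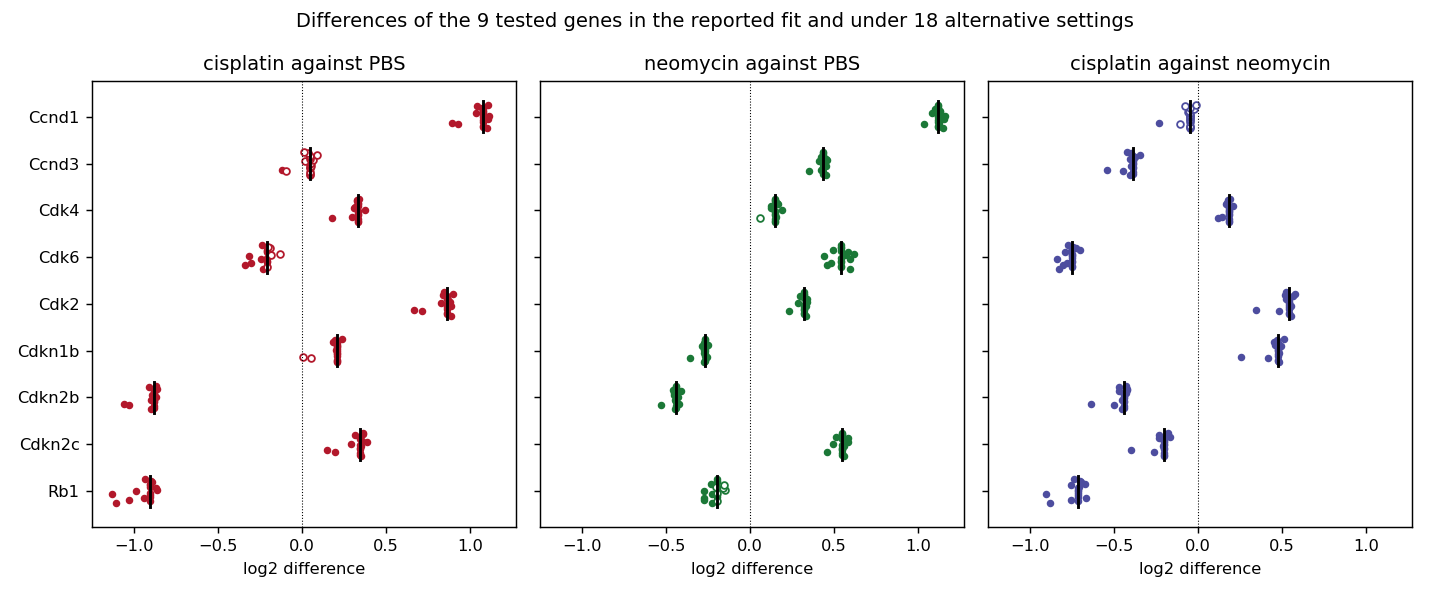
Differences in log2(FPKM + 1) of the 9 tested genes in the reported fit (black bars) and under 18 alternative settings (points, filled where the adjusted p is under 0.05; 17 for Rb1, which a filter of 5 FPKM removes), for the 3 comparisons. The points for Ccnd1, Cdk2 and Cdkn2b against PBS stay filled and on 1 side of 0, whereas those of Ccnd3 and Cdkn1b with cisplatin reach 0.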

How the data were processed

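Total RNA of HEI-OC1 cells was sequenced as mRNA libraries, per the labels' protocols, with 3 libraries for each of PBS, neomycin and cisplatin. The authors deposited FPKM values per gene, per the file headers. The aligner, the counter and the strand setting were not given in the sources used here, and gene lengths had to be inferred from the values. The genome build mm10 is named in the submitters' processing notes, whereas the labels and 94.5% of the gene identifiers are those of rat (GRCr8 table), so no coordinates are given for the measured genes, and promoters are RefSeq rat windows matched by gene ID.

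Low FPKM values were whole multiples of 1 read (tolerance 0.001) for 19608 of 19608 genes, which gave the depth. On 1 kb 3 reads were worth 0.0746 to 0.109 FPKM, depending on the library. Genes averaging 1 FPKM or more were tested on log2(FPKM + 1), a scale that understates changes of low genes, with limma 3.58.1 in R 4.3.3 (all 9 libraries, mean-variance trend, Benjamini-Hochberg adjustment per comparison, threshold 0.05). Sums and ratios were tested by exact permutation.

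TMM and quantile scaling moved the median difference of all tested genes with cisplatin from 0.12 to -0.01 and 0.01, and the split of calls from 5001 higher and 3215 lower to 3918 and 4165 (TMM) and 4064 and 4004 (quantile). With neomycin 3953 and 3020 became 3106 and 3867 (TMM) and 3498 and 3529 (quantile). Other alternatives were the pseudocount, the filter, the fit without a trend, fits on 2 groups, a replicate block, voom on the recovered reads and leaving out each library.

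All genes of the set were named, with up to 4 called genes of largest difference per list and comparison and the 3 closest genes by profile; others are marked. The members and lists were chosen with earlier results of these data known. Replicates differed by more than sampling noise, so none was counted as a copy.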

Additional observations from a re-analysis of the deposited data

How the results depend on the processing

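The 9 tested genes in 3 comparisons gave 27 values, and 21 of them kept their direction and side of the threshold under every alternative that gave a value, which was 18 for 8 genes and 17 for Rb1, below the filter of 5 FPKM. Of 483 alternative values, 466 kept both, 14 lost the call, 1 gained it and 2 reversed. The reversed values were those of Ccnd3 with cisplatin, -0.0974 with TMM factors and -0.1199 with quantile normalization. The lost calls were those of Cdk6 and Cdkn1b with cisplatin and of Cdk4 and Rb1 with neomycin. Quantile normalization also turned the members' split with cisplatin from 5 higher and 3 lower to 4 and 4. The causes were not tested.

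The summed FPKM of Cdkn2b and Cdkn2c, without further scaling, was 0.768 higher with neomycin than with PBS. This difference ranged from -1.13 without neomycin replicate 3 to 3.00 without neomycin replicate 2, and was -0.0991 without PBS replicate 1. It was not examined under TMM or quantile scaling. Equal replicate numbers are not shown to pair the libraries. The correlations of same-numbered deviations ran from -0.046 to 0.304, those of replicate 1 from 0.131 to 0.304, and not every pair was above 0.1. Differently numbered pairs ran from -0.287 to 0.188, a lower range that overlaps the first. Whether libraries of equal number share an effect was not tested. With a replicate block the counts with cisplatin were again 5 higher and 3 lower, and with neomycin 6 and 3. Ccnd2, with 2 to 11 reads per library, is limited by depth.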
